A study of Mus musculus with 18 samples.

Results

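The carnitine shuttle, the set of proteins that carries fatty acyl groups on carnitine, was followed through the change from primed to naive pluripotency in mouse cells by 8 genes, matched by symbol: Slc22a5, Cpt1a, Cpt1b, Cpt1c, Slc25a20, Cpt2, Crat and Crot. They were chosen for their function, and all 8 of 8 were among the 25239 gene symbols of the table. All 8 also passed the filter on low counts, which left 17545 genes for testing. RNA was sequenced from 18 libraries, 3 in each of 6 groups. EpiSC, epiblast stem cells that carry the label primed, marked day 0 of the transition. Libraries of days 3, 5 and 8 (D3, D5, D8) bear the label transient. Cells named rES at its end are labelled naive, and ESC are mouse embryonic stem cells. Every library was labelled as a stem cell line from mouse embryo; strain, genotype, age, transgenes, medium and feeder cells are not stated in the labels used here. The labels do not say whether libraries of a group came from separate cultures, so the p-values measure the spread between these libraries, which may be technical.

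Long-chain fatty acids are burned inside mitochondria, but their CoA esters cannot cross the inner mitochondrial membrane. Carnitine enters the cell through SLC22A5. A carnitine palmitoyltransferase of the CPT1 family on the outer membrane moves the acyl group from CoA to carnitine, SLC25A20 exchanges the acylcarnitine for free carnitine across the inner membrane, and CPT2 on the matrix side returns the acyl group to CoA. CPT1 is the step that malonyl-CoA inhibits, and it is commonly described as the control point of the route. CRAT handles acetyl and other short groups, and CROT handles medium-chain groups in peroxisomes. Naive mouse pluripotent cells are known for respiring more than primed cells, which rely more on glycolysis.

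Levels are given in CPM, the counts of a gene divided by its library's total in megacounts after trimmed-mean scaling, and differences as log2 values with their standard error (SE). A gene was called when the edgeR quasi-likelihood test gave an adjusted p below 0.05, adjusted over all 17545 genes of a comparison. Libraries held 58.4 to 102 megacounts each, and D8 replicate 2 was the deepest. In the median library more genes stood at 4 counts than at 3 or 5, so steps of 4 were assumed. On that basis 12 counts in a library were taken as the floor, which was 0.122 to 0.202 CPM. Marker levels went with the primed and naive labels. The summed level of 12 naive markers was 4712 to 4805 CPM in rES and 4800 to 4845 CPM in ESC, against 79.2 to 82.8 CPM in EpiSC. The summed level of 9 primed markers was 260 to 277 CPM in rES and 228 to 239 CPM in ESC, against 2024 to 2257 CPM in EpiSC.

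Genes of other cell types were abundant on days 3 to 8. All 8 trophoblast markers were called higher than in EpiSC at D3, D5 and D8, comparisons in which 34.1%, 37.7% and 42.4% of all tested genes were called higher, and their summed levels there were 1230 to 1368, 918 to 984 and 686 to 842 CPM. The same sum was 168 to 173 CPM in rES, 83.7 to 91.7 CPM in ESC and 3.99 to 8.69 CPM in EpiSC. In rES and ESC most of it was a single marker, Tfap2c, which averaged 163.6 ± 2.1 and 82.8 ± 5.0 CPM there (SD, n = 3 each). Cdx2 was at 0 in every EpiSC library and Hand1 in every ESC library. Of 10 fibroblast markers, 8 were called higher than in EpiSC at D3, D5 and D8, with summed levels of 521 to 671, 1346 to 1466 and 1492 to 2326 CPM. The fibroblast sum was 10.5 to 11.7 CPM in rES, with Dcn and Twist2 at 0, 130.1 to 179 CPM in ESC and 51.6 to 71.4 CPM in EpiSC. The summed level of 8 primitive endoderm markers was 51.1 to 55.9 CPM at D3, 61.9 to 67.6 CPM at D5, 96.3 to 112 CPM at D8, 18.1 to 19.8 CPM in rES, 9.98 to 13.0 CPM in ESC and 7.11 to 8.70 CPM in EpiSC; Afp was at 0 in every D5, ESC and EpiSC library. The part of these cell types in the shuttle genes' values at D3, D5 and D8 was not tested. In bulk RNA, fewer cells of a type and less RNA per cell cannot be told apart.

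**Figure D1:**
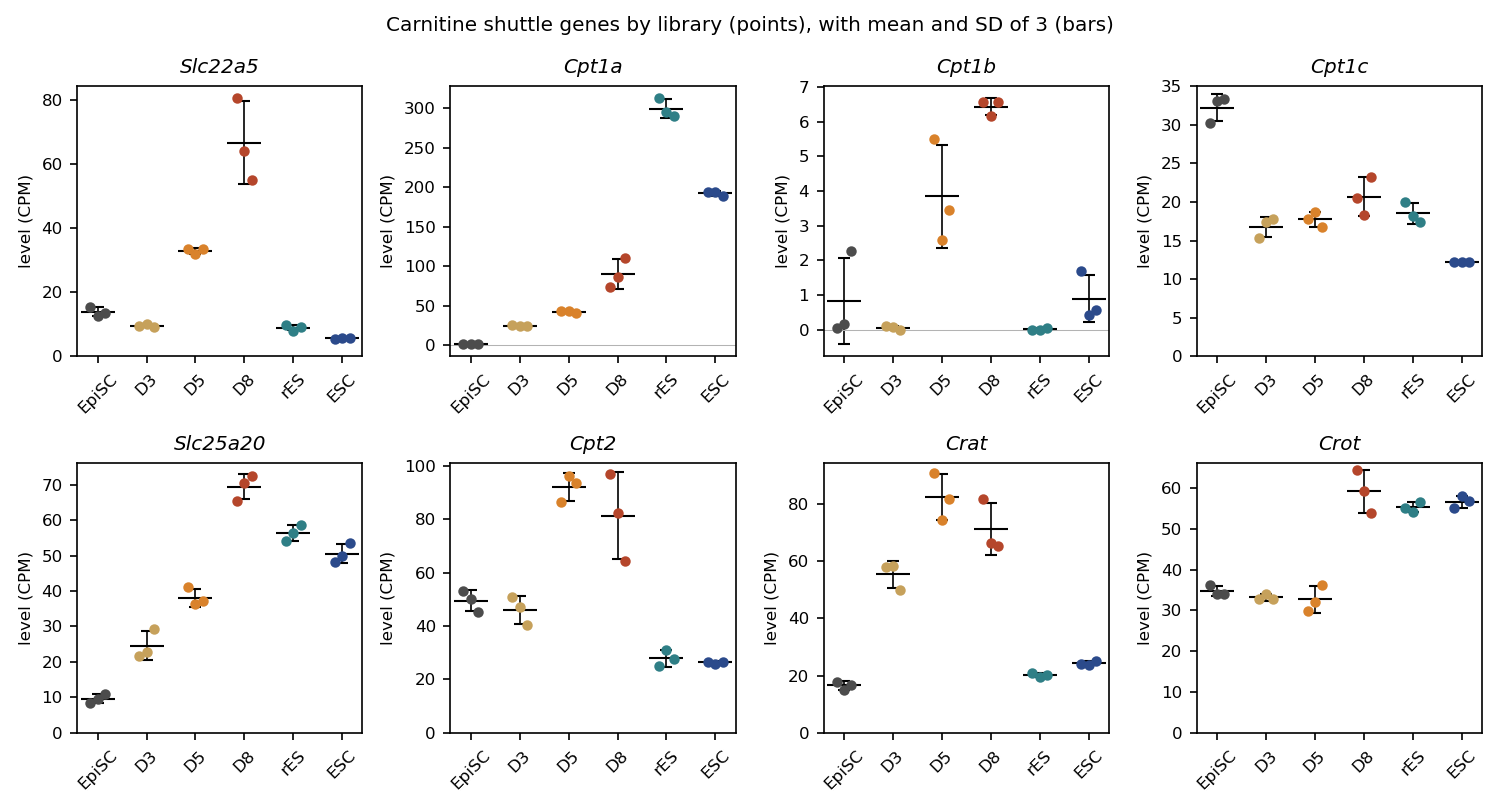
Level of each carnitine shuttle gene in CPM (linear axis, its own range for each gene) by group, with 1 point per library and bars for the mean and SD of 3 libraries. Cpt1a has its highest points in rES, at 290.5 to 313 CPM, whereas Slc22a5, Cpt2 and Crat have theirs at D5 or D8 and lie far lower in rES and ESC.

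The 250 bases before the RefSeq start are shown for 4 genes whose levels ran together in pairs: Cpt1a with Slc25a20, and Cpt2 with Slc22a5. The promoters come from RefSeq on GRCm38.p6, the build of the count table, which held 6 of the 8 genes; Cpt1b and Crat had no entry. RefSeq and GENCODE, the source of the gene positions given below, do not place every start alike. By GENCODE the Cpt1a gene starts at 3322334, so the Cpt1a window lies wholly inside it. The windows of Slc25a20, Cpt2 and Crot run in part past the GENCODE starts at 108662088, 107923610 and 8997324. The windows are chr19:3323051-3323300 on the plus strand for Cpt1a, chr9:108661886-108662135 on the plus strand for Slc25a20, chr4:107923590-107923839 on the minus strand for Cpt2 and chr11:53891704-53891953 on the minus strand for Slc22a5. Each is written 5′ to 3′ in the direction of transcription, and capitals mark GGGCGG (a GC box), CCAAT or CCGGAAGT (an ETS core), on either strand.
Cpt1a: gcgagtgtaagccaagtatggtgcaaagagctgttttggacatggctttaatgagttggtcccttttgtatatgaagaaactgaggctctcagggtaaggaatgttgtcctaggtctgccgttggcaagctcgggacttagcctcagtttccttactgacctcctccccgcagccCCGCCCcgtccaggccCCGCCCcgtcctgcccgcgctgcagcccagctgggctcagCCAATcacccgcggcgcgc
Slc25a20: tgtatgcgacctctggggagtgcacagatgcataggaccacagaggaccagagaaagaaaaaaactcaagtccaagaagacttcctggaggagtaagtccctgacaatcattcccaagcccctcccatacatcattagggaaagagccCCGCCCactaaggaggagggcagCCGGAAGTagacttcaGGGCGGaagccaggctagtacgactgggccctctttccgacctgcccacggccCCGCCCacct
Cpt2: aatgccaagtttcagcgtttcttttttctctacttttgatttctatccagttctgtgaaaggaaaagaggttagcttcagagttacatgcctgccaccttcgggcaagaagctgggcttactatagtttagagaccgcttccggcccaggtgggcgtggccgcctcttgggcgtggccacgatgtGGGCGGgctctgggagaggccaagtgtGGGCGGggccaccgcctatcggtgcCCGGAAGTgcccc
Slc22a5: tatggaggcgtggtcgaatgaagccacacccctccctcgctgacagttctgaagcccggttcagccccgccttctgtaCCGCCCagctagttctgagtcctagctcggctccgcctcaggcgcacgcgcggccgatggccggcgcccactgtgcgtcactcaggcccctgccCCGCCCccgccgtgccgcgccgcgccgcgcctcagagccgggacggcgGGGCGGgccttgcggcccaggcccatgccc

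A GC box, the letters bound by SP1-type factors, lay in all 6 promoters with a sequence, and 32.7% of 32851 RefSeq promoters of the same length held one. The motif CCAAT lay in 3 of the 6, in Cpt1a, Cpt1c and Crot, and in 33.9% of all promoters. The ETS core lay in 2 of the 6, starting 13 bases before the RefSeq start of Cpt2 and 79 bases before that of Slc25a20. It lay in 2.88% of all promoters. The Cpt1a window had 2 GC boxes, the nearer 59 bases before the RefSeq start, and a CCAAT match 19 bases before that start. The half-site of estrogen-related receptors (AAGGTCA), the TATA box (TATAAA), the E-box (CACGTG) and the NRF1 core had no match in these 6 windows; 4.08%, 12.4%, 6.02% and 0.782% of all promoters held one. Both strands were searched for each motif and no 2 matches of the marked motifs overlapped. The Slc22a5 window was 73.6% G and C with 30 CpG sites, and the Cpt1c window was 44.0% G and C with 4 CpG sites; the median over all promoters was 52.4% and 6 sites.

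Cpt1a, the CPT1 form of liver and most other tissues, climbed at every step and was the member with the largest increase. Its 3 libraries held 1.80, 1.43 and 1.62 CPM in EpiSC, 25.2, 23.8 and 23.9 CPM at D3, 43.1, 43.0 and 40.5 CPM at D5 and 73.5, 86.8 and 110.3 CPM at D8. In rES they held 313, 296 and 290.5 CPM, and in ESC 194, 194 and 189 CPM. No library of one group overlapped with any library of another. The level relative to EpiSC was 15.05-fold at D3, 26.1-fold at D5, 55.8-fold at D8, 185.5-fold in rES and 119-fold in ESC. The corresponding log2 differences were 3.91 ± 0.13, 4.71 ± 0.13, 5.80 ± 0.13, 7.54 ± 0.14 and 6.89 ± 0.14 (SE), with edgeR adjusted p between 5.46e-17 and 3.69e-14.

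The steps after D3 were smaller but each was called for Cpt1a. D5 was 1.74-fold above D3 (edgeR adjusted p = 3.73e-06), D8 was 2.14-fold above D5 (edgeR adjusted p = 1.53e-07), and rES were 3.33-fold above D8 (edgeR adjusted p = 6.20e-11). The rES also exceeded ESC by 1.56-fold, a log2 difference of 0.64 ± 0.10 (SE, edgeR adjusted p = 0.000121). All 5 neighbouring pairs in the order rES, ESC, D8, D5, D3 and EpiSC were thus told apart. Its gene lies on GRCm38 at chr19:3322334-3385733 on the plus strand, and none of the 50-base stretches of its longest transcript recurred in another annotated gene.

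Cpt1c, the form of neurons and of the endoplasmic reticulum with little transferase activity, was the member that was highest in EpiSC. It held 30.2, 33.1 and 33.3 CPM in EpiSC, 15.3, 17.4 and 17.7 CPM at D3, 17.8, 18.7 and 16.8 CPM at D5 and 20.5, 18.3 and 23.3 CPM at D8. Its levels were 20.04, 18.1 and 17.4 CPM in rES and 12.2 CPM in each ESC library. Every library of the other 5 groups lay below every EpiSC library. The log2 difference from EpiSC was -0.94 ± 0.10 at D3, -0.86 ± 0.10 at D5, -0.64 ± 0.10 at D8, -0.80 ± 0.10 in rES and -1.40 ± 0.10 in ESC (SE), with edgeR adjusted p between 1.02e-09 and 1.42e-05. The rES were 1.52-fold above ESC (edgeR adjusted p = 0.000191). In the order EpiSC, D8, rES, D5, D3 and ESC, the first pair and the last pair differed, and the 3 pairs between D8 and D3 did not pass the test (edgeR adjusted p = 0.163, 0.613 and 0.523). D8 and D3, not neighbours in this order, did differ. D8 was higher by a log2 difference of 0.30 ± 0.10 (SE, edgeR adjusted p = 0.0142), and its libraries all lay above those of D3. An antisense gene, 6530437J22Rik, covers 6.53% of its exon bases, and the strand setting of the counts is not given.

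Cpt1b, the form of muscle, could not be followed as deposited. Its counts were 4, 10 and 145 in EpiSC, 6, 6 and 0 at D3, 343, 159 and 204 at D5, 404, 605 and 418 at D8, 0, 0 and 3 in rES and 101, 26 and 41 in ESC. All D3 and rES libraries were thus at or under the floor of 12 counts, and EpiSC rested on replicate 3. Another gene model on the same strand, Gm44502, shares 2744 exon bases with it, which is 81.4% of the exon bases of Cpt1b, and 93.0% of the 50-base stretches of its longest transcript recur there. Gm44502 had 270, 492 and 0 counts in EpiSC, 202, 67 and 136 at D3, 0, 84 and 0 at D5, 0 in each D8 library, 94, 32 and 31 in rES and 27, 270 and 145 in ESC. Within EpiSC and ESC the libraries thus differed in which of the 2 gene models took the counts, EpiSC replicate 3 and ESC replicate 1 having more in Cpt1b and the other libraries more in Gm44502.

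The 2 gene models were therefore also summed, an alternative chosen after the data were seen. The summed level was 4.87 ± 2.88 CPM in EpiSC, 2.15 ± 1.15 CPM at D3, 4.30 ± 1.07 CPM at D5, 6.43 ± 0.24 CPM at D8, 0.847 ± 0.560 CPM in rES and 3.20 ± 1.44 CPM in ESC (SD, n = 3 each). D5 and D8 were called above EpiSC for Cpt1b alone, with log2 differences of 2.21 ± 0.86 and 2.95 ± 0.88 (SE, edgeR adjusted p = 0.0279 and 0.00539). With the sum, the log2 difference was -0.18 ± 0.47 for D5 and 0.40 ± 0.47 for D8, and neither passed (edgeR adjusted p = 0.762 and 0.442). The D5 difference of Cpt1b alone also did not pass without EpiSC replicate 1, EpiSC replicate 2 or D5 replicate 1 (edgeR adjusted p = 0.0816, 0.0973 and 0.0907), or with EpiSC and D5 fitted alone (0.0503). Cpt1b by itself was called lower in rES and at D3 than in EpiSC, and both calls were lost without EpiSC replicate 3 (edgeR adjusted p = 0.0623 and 0.485), when all groups compared were at or under the floor; 3 members were then called lower in rES and 2 at D3. The summed level in rES was below EpiSC by a log2 difference of -2.52 ± 0.51 (SE, edgeR adjusted p = 0.000274), below D8 by -2.92 ± 0.52 (edgeR adjusted p = 5.92e-05) and below ESC by -1.92 ± 0.51 (edgeR adjusted p = 0.00711). At D3 the summed level was also below EpiSC, by -1.18 ± 0.48 (SE, edgeR adjusted p = 0.039). With the sum, 4 members were called lower in rES and 3 at D3 than in EpiSC.

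**Figure D2:**
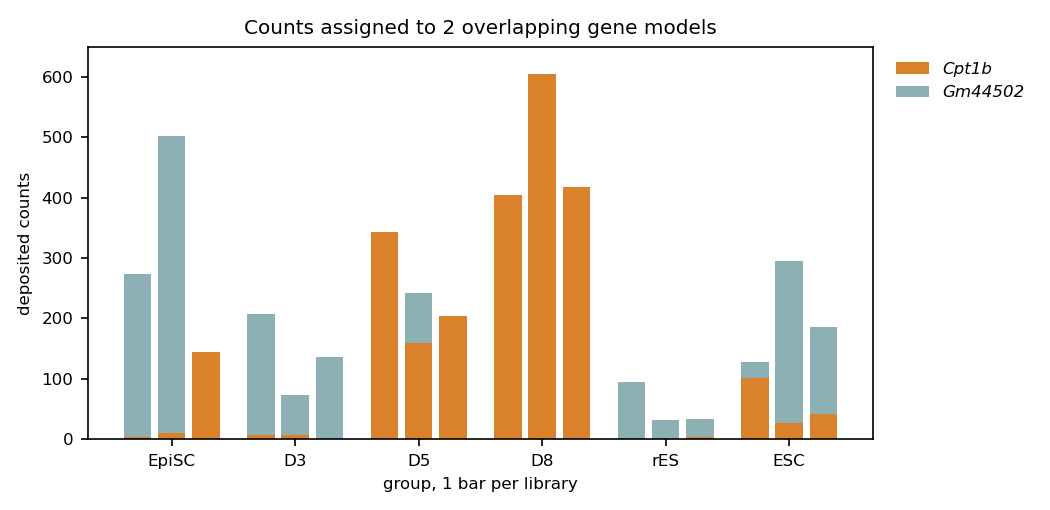
Deposited counts (linear axis, stacked) of Cpt1b and of the overlapping gene model Gm44502, with 1 bar per library in each of 6 groups. All D8 counts went to Cpt1b, 404, 605 and 418, and nearly all D3 and rES counts went to Gm44502, whereas EpiSC replicate 3 differs from replicates 1 and 2 in which model took the counts.

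Per length, the CPT1 transcripts of EpiSC were mostly Cpt1c, and those of rES and ESC mostly Cpt1a. CPM were divided by the exon length of each gene and given as a share of the 3 forms. The share of Cpt1a was 3.44 ± 0.63% in EpiSC, 51.3 ± 2.7% at D3, 56.2 ± 2.0% at D5, 67.5 ± 3.8% at D8, 92.2 ± 0.2% in rES and 91.1 ± 0.6% in ESC (SD, n = 3 each). The share of Cpt1c was 92.9 ± 5.1% in EpiSC, 48.4 ± 2.8% at D3, 32.3 ± 2.0% at D5, 21.4 ± 2.3% at D8, 7.76 ± 0.25% in rES and 7.89 ± 0.14% in ESC. At D3 both forms thus stood at about equal levels, 3.18 ± 0.10 CPM per kb for Cpt1a and 3.001 ± 0.23 CPM per kb for Cpt1c. Cpt1b held 11.5 ± 3.9% at D5 and 11.1 ± 1.7% at D8 and at most 3.64 ± 5.35% in the other groups. With Gm44502 added to Cpt1b, its share in EpiSC was 18.8% and that of Cpt1c 78.3%. These shares are a description without a test.

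**Figure D3:**
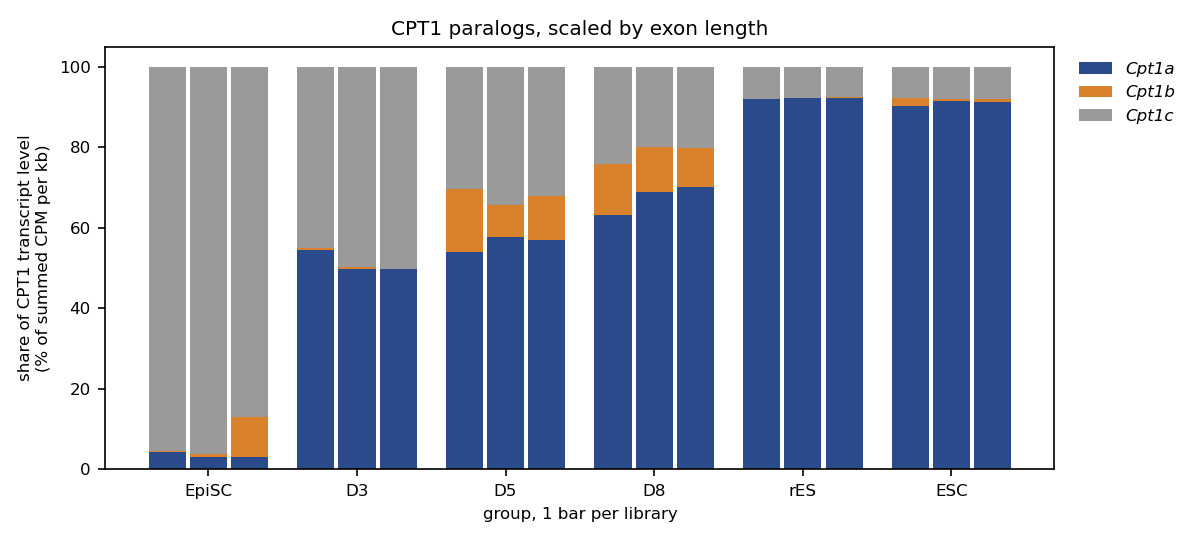
Share of Cpt1a, Cpt1b and Cpt1c in their summed level (percent of CPM per kb of exons, linear axis from 0), with 1 stacked bar per library in each of 6 groups. Cpt1a takes 3.04 to 4.17% in EpiSC libraries and 92.0 to 92.4% in rES libraries, with D3, D5 and D8 in between.

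Slc22a5, the carnitine importer of the plasma membrane, peaked on day 8 and was lowest in ESC. Its libraries held 15.5, 12.7 and 13.5 CPM in EpiSC, 9.35, 10.1 and 9.15 CPM at D3, 33.5, 31.9 and 33.5 CPM at D5 and 80.5, 64.1 and 55.1 CPM at D8. In rES it held 9.82, 8.02 and 9.08 CPM, and in ESC 5.55, 5.83 and 5.67 CPM. D5 and D8 libraries all lay above EpiSC, and D3, rES and ESC libraries all lay below. The log2 difference from EpiSC was -0.54 ± 0.12 at D3, 1.25 ± 0.12 at D5, 2.26 ± 0.12 at D8, -0.63 ± 0.12 in rES and -1.29 ± 0.13 in ESC (SE), with edgeR adjusted p of at most 0.00085.

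The gain and loss of Slc22a5 were both steep. D5 was 3.45-fold above D3 (edgeR adjusted p = 1.03e-09) and D8 was 2.02-fold above D5 (edgeR adjusted p = 1.86e-06). In rES it fell by 2.89 ± 0.13 on the log2 scale relative to D8 (SE, edgeR adjusted p = 7.70e-13), which is a 7.42-fold lower level. The rES remained 1.58-fold above ESC (edgeR adjusted p = 0.00058). Only D3 and rES, neighbours in its order, did not pass the test against each other among its 5 neighbouring pairs (edgeR adjusted p = 0.534). Of its 50-base stretches, 27.1% recur in other genes, among them the related carriers Slc22a4 and Slc22a21, so some of its reads may have been assigned to those. The trophoblast and fibroblast sums were also high at D5 and D8 and lower in rES. They were high at D3 too, at 1230 to 1368 and 521 to 671 CPM, where Slc22a5 was below EpiSC. From D5 to D8 the trophoblast sum fell, from 918 to 984 CPM to 686 to 842 CPM, while Slc22a5 rose. The part of these cell types in this result was not tested.

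Slc25a20, the carnitine-acylcarnitine translocase of the inner membrane, went up with Cpt1a through day 8 and then stayed high. It held 8.43, 9.44 and 11.1 CPM in EpiSC, 21.6, 22.9 and 29.2 CPM at D3, 41.1, 36.3 and 37.1 CPM at D5 and 65.5, 70.6 and 72.3 CPM at D8. Its levels were 54.1, 56.4 and 58.7 CPM in rES and 48.3, 49.8 and 53.6 CPM in ESC. All libraries of the other 5 groups lay above all EpiSC libraries. It was 2.55-fold the EpiSC level at D3, 3.95-fold at D5, 7.20-fold at D8, 5.85-fold in rES and 5.24-fold in ESC, with edgeR adjusted p between 2.06e-13 and 8.04e-09. D5 exceeded D3 by 0.63 ± 0.11 and D8 exceeded D5 by 0.86 ± 0.11 on the log2 scale (SE, edgeR adjusted p = 7.58e-05 and 4.07e-06). The rES were lower than D8 by a log2 difference of -0.30 ± 0.11 (SE, edgeR adjusted p = 0.0197), a call that was lost without D8 replicate 2 or 3 or rES replicate 1 (edgeR adjusted p = 0.0507, 0.055 and 0.0694). Between rES and ESC the difference of 0.16 did not pass, with a 95% interval of -0.05 to 0.37 (edgeR adjusted p = 0.285).

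Cpt2, which restores the acyl-CoA in the matrix, rose on day 5 and was lower in the naive groups than at the start. It held 53.0, 50.1 and 45.4 CPM in EpiSC, 50.7, 47.2 and 40.4 CPM at D3, 86.3, 96.1 and 93.6 CPM at D5 and 96.9, 82.4 and 64.3 CPM at D8. In rES it held 24.9, 31.1 and 27.7 CPM, and in ESC 26.6, 25.9 and 26.7 CPM. The D5 and D8 libraries lay above all EpiSC libraries, the rES and ESC libraries lay below them, and the D3 libraries overlapped with them. The log2 difference from EpiSC was 0.89 ± 0.12 at D5, 0.71 ± 0.12 at D8, -0.83 ± 0.12 in rES and -0.91 ± 0.12 in ESC (SE), with edgeR adjusted p of at most 4.05e-05. At D3 it was -0.10, with a 95% interval of -0.34 to 0.14 (edgeR adjusted p = 0.495).

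The decline of Cpt2 after day 8 ran against the gain of Cpt1a. In rES, Cpt2 was 2.91-fold lower than at D8 (edgeR adjusted p = 3.48e-09), while Cpt1a was 3.33-fold higher. In the order D5, D8, EpiSC, D3, rES and ESC, D8 differed from EpiSC and rES differed from D3 (edgeR adjusted p = 4.05e-05 and 4.79e-05), and the 3 other neighbouring pairs did not pass. Between rES and ESC the log2 difference of 0.08 had a 95% interval of -0.16 to 0.33 (edgeR adjusted p = 0.666).

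Measured per length, the ratio of Cpt1a to Cpt2 turned over in the naive groups. Cpt2 stood 98.2-fold above Cpt1a in EpiSC, 6.04-fold at D3, 6.96-fold at D5 and 2.88-fold at D8, on CPM per kb of exons. Cpt1a stood 3.37-fold above Cpt2 in rES and 2.28-fold above it in ESC. The log2 ratio was -6.62 ± 0.17 in EpiSC, -2.59 ± 0.14 at D3, -2.80 ± 0.11 at D5, -1.53 ± 0.59 at D8, 1.75 ± 0.20 in rES and 1.19 ± 0.04 in ESC (SD, n = 3 each), and no library of rES or ESC overlapped with one of the other groups. These ratios rest on exon lengths of 7642 bases for Cpt1a and 2391 bases for Cpt2. The longest transcripts have 4317 and 2372 bases, by which the lead of Cpt2 is smaller and that of Cpt1a larger. By longest transcript, the D8 libraries held 17.0, 20.1 and 25.5 CPM per kb of Cpt1a and 40.9, 34.7 and 27.1 of Cpt2. The EpiSC libraries held 0.417, 0.330 and 0.375 of Cpt1a and 22.3, 21.1 and 19.1 of Cpt2. Of the 8 members, Cpt2 had the highest level per length in EpiSC, at D3, at D5 and at D8, and Cpt1a had the highest in rES and ESC. In EpiSC the lowest 2 of the 8 were Cpt1a, at 0.211 ± 0.024 CPM per kb of exons, and Cpt1b, at 0.245 ± 0.368 CPM per kb. Their order is not settled, since Cpt1b held 0.019, 0.047 and 0.670 CPM per kb in EpiSC replicates 1, 2 and 3.

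**Figure D4:**
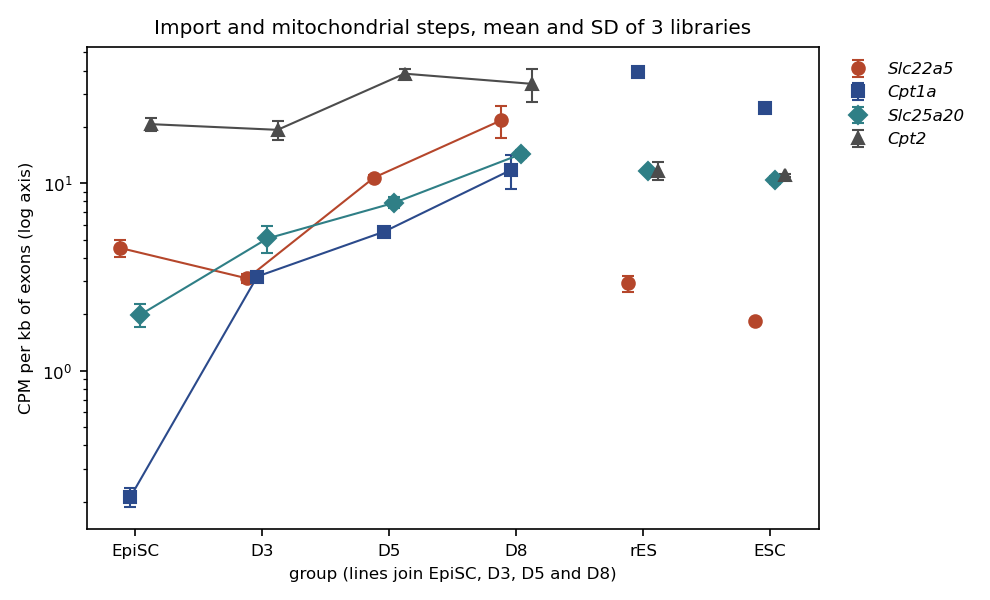
Levels per length (CPM per kb of exons, log axis) of the importer Slc22a5, the outer-membrane enzyme Cpt1a, the carrier Slc25a20 and the matrix enzyme Cpt2, as mean and SD of 3 libraries by group, with lines through EpiSC, D3, D5 and D8. Cpt1a is the lowest of the 4 in EpiSC at 0.211 and the highest in rES at 39.2, where Slc22a5 is the lowest at 2.92.

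Crat, the acetyltransferase that buffers acetyl-CoA in mitochondria and peroxisomes, was highest on days 3 to 8. It held 17.9, 15.04 and 16.8 CPM in EpiSC, 57.9, 58.2 and 49.98 CPM at D3, 90.6, 74.5 and 81.8 CPM at D5 and 81.8, 66.4 and 65.4 CPM at D8. Its levels were 20.8, 19.6 and 20.1 CPM in rES and 24.2, 23.7 and 25.2 CPM in ESC. Every library of D3, D5 and D8 lay above every library of rES, ESC and EpiSC. Relative to EpiSC it was 3.34-fold at D3, 4.96-fold at D5 and 4.29-fold at D8 (edgeR adjusted p = 6.35e-11, 7.35e-13 and 2.18e-12). In rES it fell by 1.82 ± 0.10 on the log2 scale relative to D8 (SE, edgeR adjusted p = 1.99e-11). The trophoblast and fibroblast sums were likewise high at D3, D5 and D8 and lower in rES, ESC and EpiSC, and their part in this result was not tested.

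Smaller differences of Crat changed call under some alternatives. The rES exceeded EpiSC by 0.28 ± 0.10 on the log2 scale (SE, edgeR adjusted p = 0.0191), which did not pass without EpiSC replicate 2 or without rES replicate 1 (edgeR adjusted p = 0.0939 and 0.0565). The rES were below ESC by a log2 difference of -0.27 ± 0.10 (SE, edgeR adjusted p = 0.0456), and this call was lost under median-of-ratios scaling (0.0901), without the filter (0.0575), with DESeq2 (0.083), without any 1 of the 6 rES and ESC libraries (0.0686 to 0.125) and without EpiSC replicate 3, D3 replicate 2 or D5 replicate 3 (0.0524, 0.0537 and 0.0567). ESC exceeded EpiSC by 0.56 ± 0.10 (SE, edgeR adjusted p = 9.76e-05). Its antisense neighbours Gm16323 and Dolpp1 cover 7.63% and 1.10% of its exon bases.

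Crot, the medium-chain transferase of peroxisomes, had 2 levels. It held 36.2, 34.0 and 34.1 CPM in EpiSC, 32.8, 34.2 and 32.7 CPM at D3 and 29.8, 32.1 and 36.2 CPM at D5. From D8 on it held 64.5, 59.2 and 54.0 CPM at D8, 55.1, 54.2 and 56.6 CPM in rES and 55.1, 58.005 and 56.8 CPM in ESC. The 9 libraries of D8, rES and ESC all lay above the 9 of EpiSC, D3 and D5. D8 was 1.81-fold above D5 (edgeR adjusted p = 1.04e-07), and D8, rES and ESC were 1.70-, 1.59- and 1.63-fold above EpiSC (edgeR adjusted p = 6.99e-08, 6.18e-07 and 3.54e-07). Within each level no neighbouring pair passed, and the 95% interval of the log2 difference was -0.22 to 0.09 for D3 against EpiSC, -0.18 to 0.13 for D5 against D3, -0.19 to 0.12 for rES against ESC and -0.09 to 0.22 for D8 against ESC.

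Read as a group, the shuttle genes were most often higher at D5 and D8. At D3 against EpiSC, 3 of 8 were called higher and 3 lower, where 34.1% of all tested genes were called higher and 30.2% lower. At D5 against EpiSC, 6 were called higher and 1 lower (37.7% and 34.3% of all genes). At D8 against EpiSC, 7 were called higher and 1, Cpt1c, lower (42.4% and 34.5%). With Gm44502 added to Cpt1b, the counts were 5 higher and 1 lower at D5 and 6 higher and 1 lower at D8. Leaving out Cpt1b, the median log2 difference of the other 7 was -0.07 at D3, 1.25 at D5 and 2.10 at D8, and that of all tested genes was 0.00, 0.02 and 0.19.

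In the naive groups, calls of the members went both ways. Against EpiSC, 4 members were called higher and 4 lower in rES (31.9% and 37.5% of all genes), and 4 were called higher and 3 lower in ESC (31.2% and 36.1%). Cpt1a, Slc25a20, Crat and Crot were the 4 higher in both, and Cpt1c, Cpt2 and Slc22a5 were lower in both. These comparisons share the EpiSC libraries. The other lower call in rES was Cpt1b, at or under the floor there and lost without EpiSC replicate 3. The summed Cpt1b was also called lower in rES. For so short a list the counts were near the shares of all genes. They are not read as a result about the list. The median of the 7 without Cpt1b was 0.28 in rES and 0.56 in ESC, against -0.09 and -0.07 over all genes; with Cpt1b the median in rES was -0.17, of the other sign.

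Step by step, 6 members were called higher and 0 lower at D5 against D3 (29.9% and 29.6% of all genes), and with the summed Cpt1b 5 were called higher; DESeq2 also called 0 lower, and edgeR gave 0 lower at an unadjusted p below 0.05. At D8 against D5, 4 were called higher, Cpt1a, Slc25a20, Crot and Slc22a5, and 0 lower (25.1% and 22% of all genes); DESeq2 called 0 lower, and edgeR gave 1 lower, Crat, at an unadjusted p below 0.05. At rES against D8, 1 member, Cpt1a, was called higher and 5 lower (32.7% and 38.4% of all genes). At rES against ESC, Cpt1a, Cpt1c and Slc22a5 were called higher and Cpt1b and Crat lower (15.6% and 17.9% of all genes), and under median-of-ratios scaling the split was 3 higher and 1 lower. For the order of levels, 6 further pairs of groups were tested, in which large shares of all genes were called either way: 67.5% for D8 against D3, 70.3% for rES against D3, 75% for rES against D5, 70% for D3 against ESC, 73.6% for D5 against ESC and 71.1% for D8 against ESC.

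**Figure D5:**
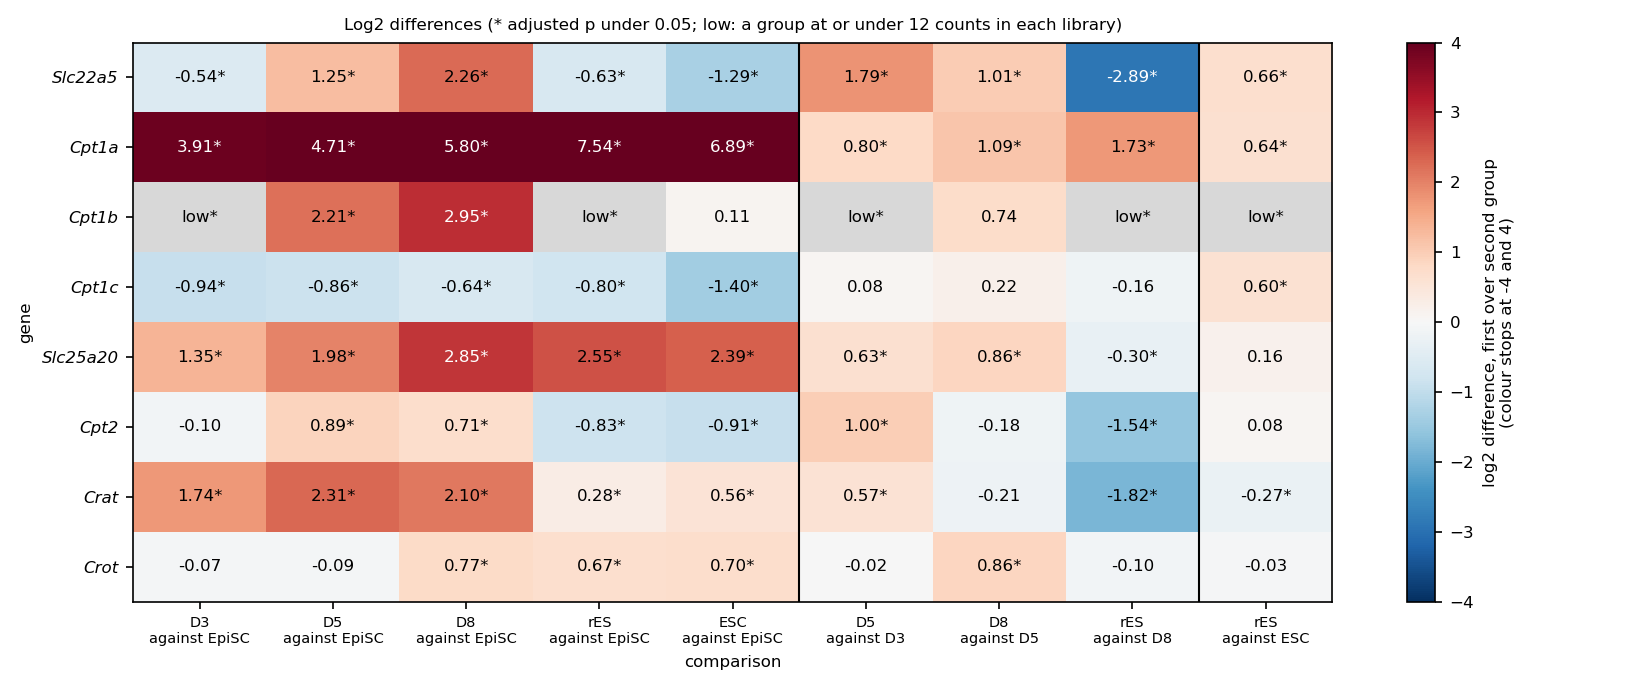
Log2 difference of each carnitine shuttle gene (rows) in 9 comparisons (columns, first group over second), with colour running from -4 to 4, an asterisk where the adjusted p is below 0.05 and the word low where a group is at or under 12 counts in each library. Cpt1a is positive in all 9 columns, and Slc22a5, Cpt2 and Crat are negative in the column of rES against D8.

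Levels at D8 varied between libraries, and the members varied in different directions. D8 replicate 3 had the highest Cpt1a, 110.3 CPM, and the lowest Cpt2, 64.3 CPM, Slc22a5, 55.1 CPM, Crat, 65.4 CPM, and Crot, 54.0 CPM. D8 replicate 1 had the lowest Cpt1a, 73.5 CPM, and the highest Cpt2, 96.9 CPM, Slc22a5, 80.5 CPM, Crat, 81.8 CPM, and Crot, 64.5 CPM. The naive marker sum was 1058, 1282 and 1979 CPM in D8 replicates 1, 2 and 3, and the trophoblast sum 842, 767 and 686 CPM. The primed sum, 77.1, 99.0 and 122 CPM, also changed in 1 direction over the replicates. The fibroblast sum, 1492, 2326 and 1769 CPM, and the primitive endoderm sum, 112, 96.3 and 99.9 CPM, did not. The library nearest to rES in its naive markers was thus also nearest to the rES mean in Cpt1a, Cpt2, Slc22a5, Crat and Crot, but it was the farthest from it in Slc25a20, at 72.3 CPM, and in Cpt1c, at 23.3 CPM. The part of the markers in this variation was not tested, and with 3 libraries no relation could be tested.

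Over all 18 libraries, which share groups and so are not 18 independent points, log2 levels of Cpt1a and Slc25a20 correlated at r = 0.93 and those of Cpt2 and Slc22a5 at r = 0.89. Cpt1a and Cpt1c correlated at r = -0.76, and Cpt1a and Cpt2 at r = -0.34. Among 12205 genes with at least 5 CPM in a group, the pattern of Cpt1a was most like those of Adap1 (r = 0.995), Alpl (0.993), which encodes the alkaline phosphatase used as a stain for pluripotent cells, Cmtm7 (0.988), Pip5k1b (0.988) and Klf8 (0.987). Slc25a20 was most like Steap3 (0.991) and Plpp3 (0.989), Cpt2 most like Rab11a (0.990) and Stx3 (0.987), and Slc22a5 most like Cables1 (0.990) and Cers2 (0.986). Crat was most like Rfk (0.990), Crot most like Ly6e (0.968) and Cpt1c most like Unk (0.955). For Cpt1b the highest value, with Vps13b, was 0.916.

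Genes around the shuttle are given from lists chosen by function. For making carnitine, Aldh9a1, which oxidises trimethylaminobutyraldehyde, averaged 81.1 ± 4.8 CPM at D3, 61.5 ± 7.5 CPM at D8, 41.5 ± 0.6 CPM in rES and 71.0 ± 0.9 CPM in ESC, against 231 ± 7 CPM in EpiSC (SD, n = 3 each), and was called lower in each. Tmlhe, the first enzyme of the path, was called lower in rES and in ESC, at 3.23 ± 0.56 and 2.63 ± 0.76 CPM, against 6.83 ± 0.74 CPM in EpiSC. Bbox1, the last enzyme, did not pass the filter. Of 7 other carriers of carnitine or acylcarnitine, 4 were called higher at D3, 4 at D5 and 6 at D8 than in EpiSC, where 34.1%, 37.7% and 42.4% of all genes were called higher, and 6 were called lower in rES against D8, where 38.4% of all genes were. Their summed level was highest at D8, at 103 to 136 CPM, as was that of Slc22a5. Slc16a9, described as a carnitine exporter, averaged 15.1 ± 1.1 CPM at D5, 64.7 ± 7.7 CPM at D8 and 8.66 ± 1.23 CPM in rES, against 0.726 ± 0.171 CPM in EpiSC. Slc6a14, an amino acid carrier that also takes up carnitine, averaged 52.3 ± 1.2 CPM at D5, 35.3 ± 8.1 CPM at D8 and 0.188 ± 0.148 CPM in rES, and the EpiSC libraries were at or under the floor.

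Enzymes that set malonyl-CoA, the inhibitor of CPT1, were called in both directions. Of 8 genes of this list, 3 were called higher and 3 lower at D3 than in EpiSC, 4 and 3 at D5, 4 and 2 at D8, 2 and 3 in rES and 4 and 3 in ESC. The shares of all tested genes called higher and lower were 34.1% and 30.2% at D3, 37.7% and 34.3% at D5, 42.4% and 34.5% at D8, 31.9% and 37.5% in rES and 31.2% and 36.1% in ESC. For a list of 8 genes the counts were near those shares, and they are not read as a result about the list. Acacb, the acetyl-CoA carboxylase at the outer mitochondrial membrane, averaged 9.38 ± 0.81 CPM at D3, 37.4 ± 2.9 CPM at D8, 82.8 ± 1.4 CPM in rES and 117 ± 2 CPM in ESC, against 18.7 ± 0.6 CPM in EpiSC (SD, n = 3 each). Acaca, the other carboxylase of the list, was more abundant and went the other way at D8 and in rES. It averaged 301 ± 18 CPM in EpiSC, 166 ± 17 CPM at D8, where it was called lower, and 146 ± 1 CPM in rES. In ESC it averaged 223 ± 11 CPM. Mlycd, which removes malonyl-CoA, averaged 34.2 ± 4.5 CPM at D8 and 4.45 ± 0.13 CPM in rES, against 14.9 ± 1.3 CPM in EpiSC. It was thus called higher at D8 and lower in rES than in EpiSC, and Acacb was called higher in both. Prkaa2, a catalytic subunit of the AMP-activated kinase that inhibits the carboxylases, averaged 68.8 ± 2.2 CPM in rES and 67.9 ± 3.4 CPM in ESC, against 12.7 ± 2.2 CPM in EpiSC, and was called higher in both.

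Upstream of the shuttle, all 5 long-chain acyl-CoA synthetases were called in D3, D5, D8 and rES against EpiSC. On each of the 3 days 3 were higher and 2 lower, and in rES 1 was higher and 4 lower. In ESC against EpiSC, 1 was called higher, 3 lower and 1 was not called. Most of all tested genes were called in these comparisons too, 34.1% higher and 30.2% lower at D3, 37.7% and 34.3% at D5 and 42.4% and 34.5% at D8. The shares were 31.9% and 37.5% in rES and 31.2% and 36.1% in ESC. Acsl4, which prefers arachidonic acid, averaged 35.4 ± 2.1 CPM in rES, against 395 ± 8 CPM in EpiSC (SD, n = 3 each). Downstream, of 15 mitochondrial beta-oxidation genes 8 were called higher and 6 lower at D3, 12 and 2 at D5, 13 and 1 at D8, 11 and 3 in rES and 8 and 3 in ESC than in EpiSC. The shares of all genes called higher were 34.1%, 37.7%, 42.4%, 31.9% and 31.2% in the same order, and those called lower 30.2%, 34.3%, 34.5%, 37.5% and 36.1%. The median log2 difference of the 15 was 0.32, 0.84, 1.36, 0.85 and 0.66, and that of all tested genes 0.00, 0.02, 0.19, -0.09 and -0.07. The sum of the 15 was 1468 to 1746 CPM at D8 and 1154 to 1219 CPM in rES, against 678 to 713 CPM in EpiSC. Hadhb, a subunit of the trifunctional protein for long-chain acyl-CoA, averaged 205 ± 10 CPM at D5, 166 ± 34 CPM at D8 and 61.6 ± 0.8 CPM in rES, against 32.3 ± 3.9 CPM in EpiSC. Acadl, a long-chain acyl-CoA dehydrogenase, averaged 30.9 ± 6.8 CPM at D8 and 1.504 ± 0.41 CPM in rES, against 13.5 ± 0.7 CPM in EpiSC, and was called lower in rES, so long-chain enzymes did not all follow 1 pattern. In rES against D8, 1 of the 15 was called higher and 11 lower (32.7% and 38.4% of all genes).

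Among 10 tested receptors and coactivators known to act on fatty acid oxidation genes, 7 were called higher than in EpiSC at D3, at D5 and at D8, with 2, 1 and 1 lower, and 4 higher and 4 lower in rES. Of all tested genes, 34.1%, 37.7% and 42.4% were called higher and 30.2%, 34.3% and 34.5% lower on these days, and 31.9% higher and 37.5% lower in rES, near the shares of the list in rES. In ESC against EpiSC, 2 of the list were called higher and 4 lower (31.2% and 36.1% of all genes). Pparg, a fatty acid receptor of fat cells and trophoblast, averaged 9.36 ± 0.85 CPM at D3, 137 ± 7 CPM at D5 and 175 ± 43 CPM at D8 and was at 0 in each rES library, against 0.151 ± 0.209 CPM in EpiSC (SD, n = 3 each). Esrrb, an estrogen-related receptor and naive pluripotency factor, averaged 3.26 ± 1.14 CPM in EpiSC and 23.9 ± 0.04 CPM at D3. At D5 its mean was lower than at D3, at 14.1 ± 5.1 CPM. It then averaged 187 ± 66 CPM at D8, 671 ± 15 CPM in rES and 782 ± 28 CPM in ESC. Pparg thus had its highest levels on days 5 and 8 and Esrrb in the naive groups.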

How the data were processed

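The authors deposited 1 table of expected counts for 18 libraries, whole numbers per gene symbol, not scaled between libraries. Per the labels, ribosomal RNA was removed from total RNA and a VAHTS kit was used for the libraries, read in pairs on a HiSeq X instrument. Per the submitters' processing notes, bcl2fastq, Trim Galore and HISAT2 were used with mm10; no source used here gives the counting program, the annotation or the strand setting. Of 25239 symbols, 21120 had a count. Low counts bunch at 4: in the median library 314.5 genes stood at 4 counts, against 157 at 3 and 105.5 at 5. Steps of 4 were assumed from this, and higher multiples were not tallied. The floor was therefore set at 12 counts per library, and it covers counting error only.

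The fit used R 4.3.3 with edgeR 4.0.16 (and limma 3.58.1), with all 18 libraries in 1 fit of 6 groups, filterByExpr (17545 genes kept), TMM factors of 0.945 to 1.05, a common biological coefficient of variation of 0.167 and quasi-likelihood F tests. P-values were adjusted by Benjamini-Hochberg over all genes of a comparison, at a threshold of 0.05. An approximate SE was taken from each log2 difference and the root of its F value, and 95% intervals rest on it. Log2 levels used a prior count of 2. The scripts were tested on simulated data. Same-numbered libraries did not deviate together (median residual correlation 0 over 45 pairs, -0.061 to 0.053), so replicates were taken as unpaired. GENCODE vM21 on GRCm38 (the assembly of mm10) gave gene positions, exon lengths and shared 50-base stretches, and promoters from RefSeq.

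The genes, lists and comparisons were chosen with earlier results of these data known. All 8 genes are named in every comparison; other genes are up to 3 called members of each list with the largest differences and at least 5 CPM, of which a part is shown, and the genes most alike in pattern. Alternatives were median-of-ratios (RLE) scaling, no filter, DESeq2 1.42.0, counts divided by 4, a replicate block, 2 groups fitted alone, longest transcript length and leaving out each library; the sum of Cpt1b and Gm44502 was added later.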

Additional observations from a re-analysis of the deposited data

How the results depend on the processing

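Of 871 alternative values for 72 log2 differences of the 8 genes, 839 kept direction and call, 22 lost the call, 9 gained it and 1 reversed. The reversal was Cpt1b at D5 against EpiSC, which was -0.18 with Gm44502 added, against 2.21 alone; leaving out Cpt1b, 735 of 756 values kept direction and call and 0 reversed. Counts of members called kept within 1.5 times under each alternative that was run. Leaving out 1 library of the groups compared at a time, they ranged from 5 to 6 for D3, 6 to 7 for D5, 8 to 8 for D8, 7 to 8 for rES and 7 to 8 for ESC against EpiSC, and 6 to 6 for D5 against D3, 4 to 6 for D8 against D5, 5 to 6 for rES against D8 and 4 to 4 for rES against ESC, where 5 were called with all libraries. Of 40 neighbouring pairs, 24 were called, and 21 to 26 without 1 library. Gained calls were those of Cpt1c at D8 against D5 under RLE scaling (adjusted p = 0.0275), with DESeq2 (0.0157) and without D8 replicate 2 (0.029), of Cpt2 at D8 against D5 without D8 replicate 1 (0.0359), of Crat at D8 against D5 without D5 replicate 2 (0.0484) or D8 replicate 1 (0.0134), of Slc25a20 at rES against ESC with these groups alone (0.0316), of Cpt1b at D8 against D5 with these groups alone (0.0377), and of Cpt1b in ESC against EpiSC without EpiSC replicate 3 (0.00385). With 2 groups fitted alone, Cpt1b at D3 and in rES against EpiSC did not pass the filter and has no value. The cause of the changed calls was not tested. The replicate block changed no call of a member, and 5 members were called in rES against ESC with it. RLE scaling moved the median of all genes most in rES against D5, to -0.01, against -0.13 with TMM, and at D8 against EpiSC to 0.28, against 0.19.

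With the longest transcript as length, the share of Cpt1a at D5 was 59.1%, that of Cpt1b at D8 7.67% and that of Cpt1c in ESC 7.71%. With Gm44502 added, Cpt1a held 46.7% at D3, 91.7% in rES and 89.0% in ESC, Cpt1b 18.8% in EpiSC, 9.24% at D3, 0.577% in rES and 3.34% in ESC, and Cpt1c 78.3% in EpiSC, 44.1% at D3 and 7.71% in ESC. Without 1 library, Cpt1a ranged over 3.07 to 3.64% in EpiSC, 49.8 to 52.2% at D3, 55.4 to 57.3% at D5, 66.1 to 69.7% at D8, 92.1 to 92.4% in rES and 90.9 to 91.5% in ESC. Cpt1b ranged over 0.551 to 5.29% in EpiSC, 0.218 to 0.457% at D3, 9.42 to 13.3% at D5, 10.3 to 11.96% at D8, 0 to 0.0165% in rES and 0.545 to 1.21% in ESC. Cpt1c ranged over 91.3 to 95.8% in EpiSC, 47.4 to 49.99% at D3, 31.3 to 33.2% at D5, 20.05 to 22.1% at D8, 7.63 to 7.87% in rES and 7.81 to 7.96% in ESC. Depth limits only Cpt1b, whose D3 and rES counts were at or under the floor.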
